A study of Mus musculus with 4 samples.

Results

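Wide stretches of H3K27me3 that took up about the same number of bases in adult and in fetal blood progenitors were described here, 713 regions out of 22283 in all. Peaks of both populations lying 3 kb or less from each other were joined into union regions on the mouse build mm9. A region was kept on chromosomes 1 to 19 when it was at least 10 kb wide and when the ratio of its bases in fetal liver peaks to its bases in bone marrow peaks was above 0.8 and below the inverse of 0.8, that is, when the list with fewer bases held more than 0.8 times those of the other. Regions touching the 4 Hox clusters were left out. The kept regions were 33.1% of the 2156 autosomal regions of this width outside Hox. Another 1253 (58.1%) were marked in both populations with a ratio above these limits, 137 (6.35%) with a ratio below them, and 53 (2.46%) were marked in 1 population. These values of the deposited peaks chose the members, so the count and the ratio are a description and were not tested.

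H3K27me3 is written by Polycomb repressive complex 2, whose catalytic subunit is usually EZH2. Its subunit EED binds the finished mark and stimulates the enzyme, which lets the mark spread from a starting site over neighbouring nucleosomes into a domain. Such domains lie over genes kept silent in a cell type, many of them developmental regulators, and in blood progenitors they include genes of other lineages.

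The adult group was H3K27me3 chromatin of lineage-negative bone marrow cells of C57BL/6 mice aged 8 weeks, and the fetal group was that of lineage-negative liver cells of C57BL/6 embryos at day 14.5. Both groups carried the NOTCH1ΔE (N1dE) lentivirus, were kept for 3 days after transduction in medium with IL-3, IL-6, FLT3 ligand and SCF, and were sorted as GFP-positive cells, so no untransduced progenitors stand beside them. Chromatin was cut with micrococcal nuclease and precipitated without crosslinking, and an input of each population served as its control. There was 1 peak list per group, called on merged libraries. The promoter that drives N1dE, the number of animals and the number of merged libraries are not stated by the labels.

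With 1 list per group there is no spread between replicates, and no p-value between the populations is given. Intervals are 95% Wilson intervals and cover counting over regions, edges or gaps only. The read depth is unknown. Over all autosomes the fetal liver peaks covered 60.4 Mb and the bone marrow peaks 39.8 Mb, a ratio of 1.52, so a region with equal bases in both lists holds a smaller share of the fetal liver list than of the bone marrow list. When each ratio was divided by 1.52, 762 regions lay within the limits, and only 62 of the 713 were among them. Evenness is therefore that of the peaks as deposited. No gene was placed on the regions, because the gene and promoter tables at hand are on GRCm38, and the labelled cell types were not checked against marker genes.

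The evenly marked regions were mostly modest in size, with a few long domains. Their width ran from 10046 to 91663 bp with a median of 16787 bp (quartiles 12576 and 25955 bp). Together they spanned 15.4 Mb, of which 10.6 Mb lay in bone marrow peaks and 11.3 Mb in fetal liver peaks. They held 26.6% of all autosomal bases marked in bone marrow and 18.7% of those marked in fetal liver. Bases per region ran from 1858 to 87105 in bone marrow (median 11437) and from 1737 to 88109 in fetal liver (median 11945). Within the limits the ratio leaned to fetal liver, at a median of 1.08 and above 1 in 491 of 713 regions (68.9%). Outside the 713 the autosomal ratio was 1.68.

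**Figure D1:**
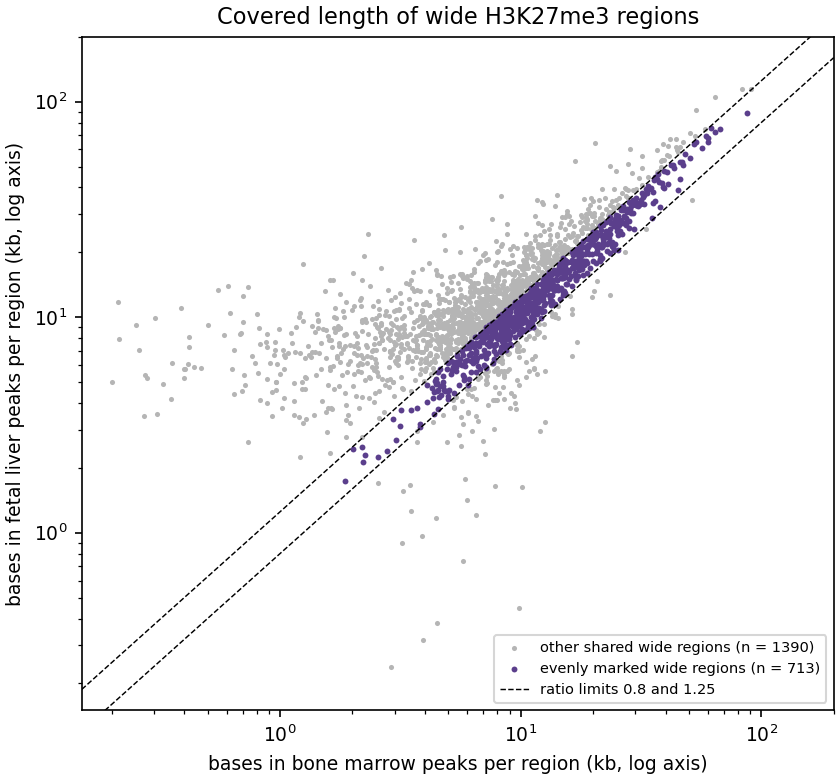
Bases in fetal liver peaks against bases in bone marrow peaks for each wide autosomal region marked in both populations, both in kb on log axes; purple points are the 713 evenly marked regions, grey points the other shared wide regions, and dashed lines the ratio limits of 0.8 and its inverse. Most grey points lie above the upper line, where 1253 regions had more fetal liver bases.

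The limits cut through a continuous range. On chromosome 12, 117721929 to 117732180, 4828 fetal liver against 6030 bone marrow bases gave a ratio of 0.8007 and kept the region, whereas 5326 against 6666 bases at 81546122 to 81556164 gave 0.799 and left it out. At the upper limit, 29316 fetal liver against 23472 bone marrow bases on chromosome 12, 58622782 to 58660404, gave 1.249 and kept the region, and 14300 against 11436 bases on chromosome 4, 140917415 to 140941028, gave 1.2504 and did not. A region of 10046 bp on chromosome 19, 58523858 to 58533903, passed the width limit, and one of 9997 bp on chromosome 14, 33666099 to 33676095, did not.

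Even regions made up a larger share from 20 kb upwards than below. It was 29.0% (95% Wilson interval 26.3 to 31.8%) of those from 10 to under 15 kb, 30.2% (26.1 to 34.5%) from 15 to under 20 kb, 39.4% (34.6 to 44.4%) from 20 to under 30 kb, 43.6% (37.5 to 50.0%) from 30 to under 50 kb and 40.8% (30.4 to 52.0%) from 50 kb upwards. The background over all widths was 33.1%, and no test of this trend was made. A region counted as more marked in bone marrow was rare at large width: 91 of 1015 from 10 to under 15 kb, and 1 of 76 from 50 kb.

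The 10 widest domains were marked over most of their width in both populations. The widest, on chromosome 8 from 126061701 to 126153363, was 91.7 kb wide and held 87.1 kb in 5 bone marrow peaks and 88.1 kb in 3 fetal liver peaks. Of these, 84.5 kb were marked in both lists, and only 994 bp of the domain were in neither. Its left ends lay 19 bp apart, and on the right the bone marrow peaks reached 1756 bp farther.

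Next came a domain of 91.0 kb on chromosome 5, 28475102 to 28566137, where 10 bone marrow peaks took up 67.4 kb and 10 fetal liver peaks 74.8 kb. Fetal liver reached farther out at both of its ends, by 2022 and 3400 bp. A second domain on chromosome 5, 139999552 to 140082164, had 61.8 kb in 11 bone marrow peaks and 75.1 kb in 7 fetal liver peaks. The domain on chromosome 10, 42279768 to 42357470, was marked over 64.2 kb by 11 bone marrow peaks and over 72.0 kb by 7 fetal liver peaks, and its ends differed by 168 and 95 bp. On chromosome 4, 115589312 to 115661215, the left ends lay 8 bp apart, while the right end was 5841 bp farther out in fetal liver. The domain on chromosome 11, 98144971 to 98216237, had 60.2 kb in 5 bone marrow peaks and 64.7 kb in 6 fetal liver peaks.

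Of the 10 widest, 3 lay close together on chromosome 19. The first, 44791040 to 44867513, had 52.3 kb in 10 bone marrow peaks and 63.3 kb in 7 fetal liver peaks. The second, 45174490 to 45249128, had 60.0 kb in 8 and 68.1 kb in 4, and a single fetal liver peak took up 57.9 kb of it. The last, 45291984 to 45381707, was broken up in both populations, with 58.9 kb in 16 and 69.0 kb in 17 peaks. In bone marrow the widest peak of the first and second domain was 27.5 and 32.4 kb wide, whereas that of fetal liver was 50.9 and 57.9 kb.

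**Figure D2:**
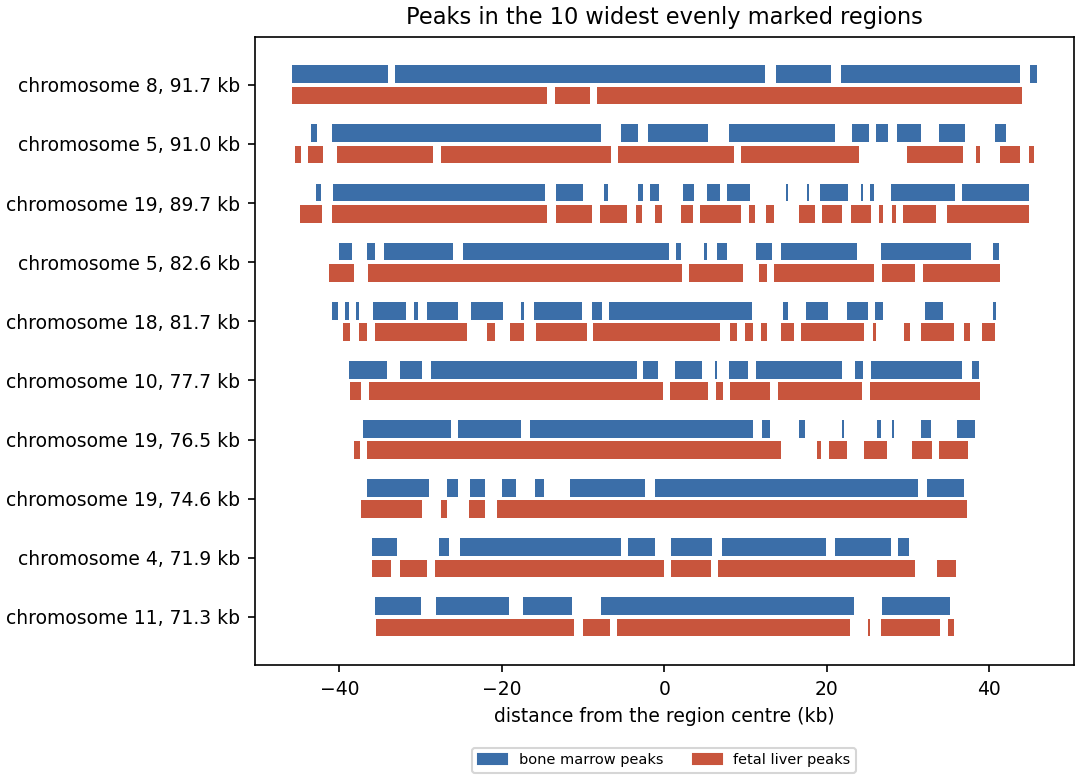
Peaks of bone marrow (blue, upper bars) and fetal liver (red, lower bars) in the 10 widest evenly marked regions, drawn to scale by distance from the region centre in kb and labelled by chromosome and width. The outer ends differ by as little as 8 bp, at the left of the chromosome 4 region, and by as much as 5841 bp, at its right.

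The marked bases largely coincided. Bases marked in both lists, as a share of the smaller of the 2 covered lengths, had a median of 87.2% over the 713 regions (quartiles 76.6 and 94.7%) and reached at least 90% in 285 (40.0%). Equal totals do not fix this share, but dense filling does in part. Peaks filled a median of 69.0% of the width in bone marrow and 73.1% in fetal liver, and so much marked length in so little space forces a median overlap of 62.4%. The observed share was above the fill of the fuller list in 600 of 713 regions (84.2%), and over all 713 the median difference was 9.51 percentage points. That fill is the average overlap of unrelated positions only if they are spread evenly over a region. Marking was thinner towards the region ends, where only 1 list need reach, so this comparison cannot tell whether the positions are related. Over all members, 9.10 Mb were marked in both lists, 2.22 Mb in fetal liver alone and 1.50 Mb in bone marrow alone.

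The overlap was higher in members from 20 kb upwards than below. The median share was 84.6% from 10 to under 15 kb, 84.3% from 15 to under 20 kb, 90.2% from 20 to under 30 kb, 91.2% from 30 to under 50 kb and 91.8% from 50 kb. Filling differed in the same direction in both lists. In the same classes fetal liver peaks took up a median of 70.3, 69.5, 75.4, 78.0 and 78.8% of the width. Bone marrow peaks took up 68.1, 65.3, 70.6, 71.2 and 68.4%, so the widest class was little above the narrowest. The part of filling in the overlap was not tested. For shared wide regions with more fetal liver bases the median overlap was 90.3%, and for those with more bone marrow bases 81.3%. No test of these differences was made. A shorter list inside a longer one reaches a high share more easily, so these classes are not on equal terms with the even regions.

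In 33 regions (4.63%) less than 50% of the smaller list was shared, and these were even in amount but not in place. The lowest was on chromosome 13, 41287422 to 41297489, where the 2 bone marrow peaks of 1858 bases and the 2 fetal liver peaks of 1737 bases did not share a base. Along the chromosome the order was a fetal liver peak of 1134 bp, a bone marrow peak of 607 bp, a fetal liver peak of 603 bp and a bone marrow peak of 1251 bp. On chromosome 3, 130781295 to 130795571, the 2563 bone marrow and 2239 fetal liver bases shared 9 bp. The fetal liver peaks lay to the left and the bone marrow peaks to the right, with 1 overlapping pair between. Others among the lowest 5 were on chromosome 6, 116495931 to 116507331 (6.97% shared) and 92168339 to 92178653 (12.4%), and on chromosome 1, 193746047 to 193757435 (17.2%). All 5 were under 15 kb wide, and bone marrow peaks filled between 18.0 and 25.8% of their width. Such regions are rows of short peaks that the joining distance of 3 kb links, rather than single blocks.

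Outer edges differed by a median of 823 bp in the regions as defined here. For each region the outermost peak end of one list was compared with that of the other, on the left and on the right, which gave 1426 edges. The quartiles of the distance were 276.5 and 1987 bp, and as a share of the region width the median was 4.49%. The median was 534 bp with joining within 1 kb and 1282 bp with joining within 10 kb, 1539 bp when the ratio was divided by 1.52, and 2586 bp in the 15 regions left at a −log10 q of 2 or more. Edges lay within 200 bp of each other in 20.3% (18.3 to 22.4%), within 500 bp in 36.0% and within 1000 bp in 55.3%, and 4 edges were at the same base. In shared wide regions with more fetal liver bases the median was 2067 bp and in those with more bone marrow bases it was 1294 bp. Unequal totals move the edges apart by themselves, so this comparison follows in part from the rule.

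Fetal liver was the outer list at 820 edges (57.5%, 54.9 to 60.0%) and bone marrow at 602 (42.2%, 39.7 to 44.8%). Left and right sides were alike, with medians of 146 and 112 bp towards fetal liver. At both ends fetal liver was outside in 231 regions and bone marrow in 122, and in 356 (49.9%) each list was outside at 1 end. The offsets of the left and right ends were nearly unrelated across the 713 regions (Pearson r = -0.05, Spearman rho = -0.04), whose ends share libraries and depth. A list farther out at both ends tends to hold more bases and to leave the ratio limits, so these counts and the correlation follow in part from the rule. In shared wide regions with more fetal liver bases, fetal liver was the outer list at 82.9% of edges. In those with more bone marrow bases, bone marrow was the outer list at 76.3%.

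A few regions ended almost at the same base on both sides. Both ends lay within 200 bp in 29 of 713 (4.07%), and the 5 with the smallest summed distance are named here. On chromosome 6, 99674930 to 99687613, the ends differed by 1 and 15 bp. On chromosome 4, 48058968 to 48069570, they differed by 0 and 19 bp, and all 9545 bone marrow bases lay within the 9799 fetal liver bases. Both ends of the region on chromosome 11, 116370731 to 116382690, were within 21 bp, but peaks filled only 43.7% of it in bone marrow and 52.0% in fetal liver. Both ends were within 26 bp for chromosome 14, 31161726 to 31174213, and within 35 bp for chromosome 13, 78308878 to 78353496. That last region is 44.6 kb wide and its 5 bone marrow peaks made up 40.8 kb and its 3 fetal liver peaks 41.4 kb.

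At the other extreme, the region on chromosome 12, 58622782 to 58660404, reached 10452 bp farther to the left and 1884 bp farther to the right in fetal liver, and bone marrow marked its core. On chromosome 1, 42728339 to 42786384, fetal liver reached 8504 and 2859 bp farther, and the covered lengths were 36.2 kb for bone marrow and 44.5 kb for fetal liver. On chromosome 5, 35716091 to 35753540, 1 bone marrow peak of 26.6 kb stood against 5 fetal liver peaks of 32.7 kb that passed it by 3276 and 7582 bp. Shifted regions were among the 5 largest offsets too. On chromosome 12, 109781715 to 109800858, fetal liver reached 6636 bp farther on the left and bone marrow 4515 bp farther on the right, and the covered lengths of 9734 and 9370 bases nearly balanced.

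**Figure D3:**
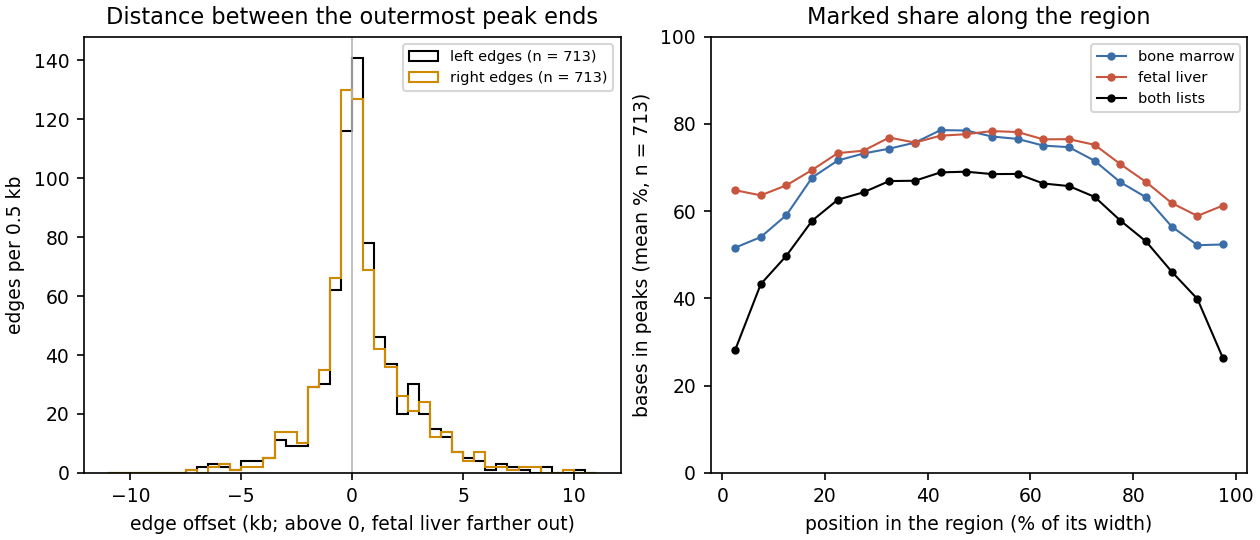
Left: signed distance between the outermost peak ends of the 2 lists in kb, in steps of 0.5 kb, for the left and right edges of the 713 regions, with values above 0 where fetal liver reached farther. Right: mean share of bases in peaks along the region, in 20 steps from its left to its right end, for each list and for both; it is highest in the middle, and the offsets gather around 0 with a longer tail above it.

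Marking was densest in the middle of the regions. In the 20 equal steps from left to right, the share of bases in both lists was 28.1% in the first step, 69.1% just left of the centre and 26.2% in the last. Bone marrow went from 51.6% in the first step to 78.6% near the centre, and fetal liver from 64.8% to 78.4%. Only 1 list need reach a region's end, which lowers the outer steps by construction. Most bases of a single list lay inside the other list's outer ends. Of the bases in fetal liver alone 33.6% lay beyond the bone marrow edges, and of those in bone marrow alone 27.6% lay beyond the fetal liver edges. Most bases of a single list thus lay in gaps of the other list, which they covered in part or in whole. The gaps also took up more length than the stretches beyond the edges, so these shares do not show where such marking was denser.

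The regions were rarely a single block. A median of 3 peaks made up each list's part, with up to 17, and 27 regions (3.79%) had 1 peak in each list. In those 27 the median overlap was 100% and the median distance between edges 500.5 bp. Peak numbers were equal in 181 regions, higher in fetal liver in 299 and higher in bone marrow in 233. No gap interrupted the bone marrow peaks in 93 regions (13.0%) and the fetal liver peaks in 65 (9.12%).

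Gaps between the peaks of a list were compared with those of the other list. There were 1803 gaps in bone marrow with a median width of 1426 bp and 1947 in fetal liver with a median of 1347 bp. The shortest gap in either list was 801 bp, over the whole genome too, so shorter breaks do not appear in these lists. Of the bone marrow gaps 1147 (63.6%, 61.4 to 65.8%) shared at least 1 bp with a fetal liver gap, and of the fetal liver gaps 1210 (62.1%, 60.0 to 64.3%) with a bone marrow gap. The bone marrow share depended on the processing, at 38.2% when peaks were joined within 1 kb and 29.4% when both lists were limited to a −log10 q of 2 or more, which left 15 regions. Peaks of the other list filled 491 bone marrow gaps (27.2%) and 390 fetal liver gaps (20.03%) from end to end. In bases, 42.3% of the bone marrow gap length was marked in fetal liver and 32.1% of the fetal liver gap length in bone marrow. In shared wide regions with more fetal liver bases 61.1% of bone marrow gaps met a fetal liver gap. In those with more bone marrow bases 64.8% did. Bone marrow gaps were thus met about as often there as in the even regions. For fetal liver gaps the shares were 54.7 and 64.1%, against 62.1% in even regions. These differences were not tested.

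Short gaps were often filled in the other population and long ones seldom. Of bone marrow gaps under 1 kb, 42.5% (37.8 to 47.4%) met a gap of fetal liver and 51.5% were filled. From 2 to under 3 kb 75.5% (70.8 to 79.7%) met one and 8.73% were filled, and from 3 kb 94.4% (91.0 to 96.6%) and 2.59%. Fetal liver gaps gave 43.8%, 73.7% and 89.2% for the meeting share in the same classes. A wider gap meets another more easily. One of over 3 kb must in addition hold a peak of the other list, or the region would not have been joined there.

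**Figure D4:**
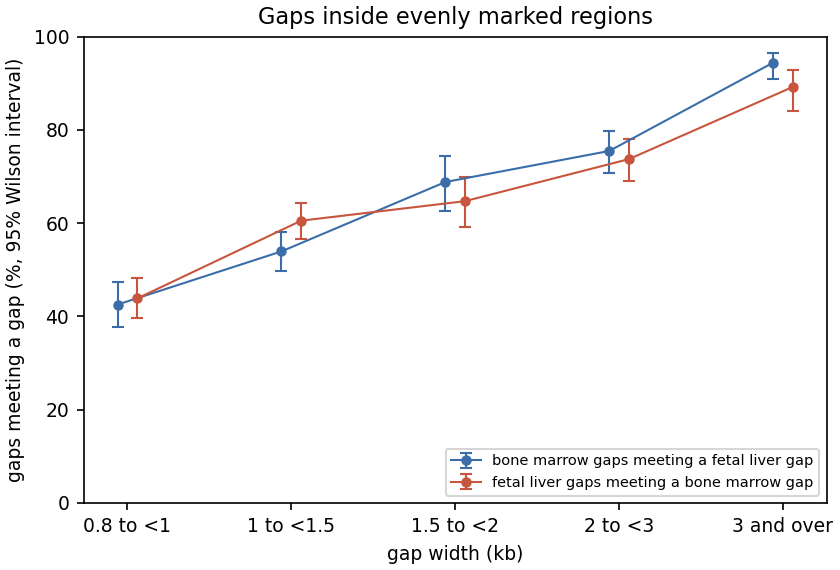
Percent of gaps between peaks of one list that share at least 1 bp with a gap of the other list, by gap width in kb, in the 713 regions; points are shares, and bars 95% Wilson intervals over gaps. Bone marrow gaps go from 42.5% below 1 kb to 94.4% from 3 kb, and fetal liver gaps from 43.8% to 89.2%.

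Where 1 gap of each list met only each other, in 739 pairs, their matching ends lay a median of 376 bp apart (quartiles 133 and 810.5 bp) and their centres 334.5 bp. These pairs, out of 1803 bone marrow and 1947 fetal liver gaps, were chosen for meeting, which by itself brings ends and centres close. The median pair measured 1637 bp in bone marrow and 1447 bp in fetal liver, with 1050 bp open in both. Stretches in neither list numbered 1977 over all members, with a median of 1132 bp, and made up 2.58 Mb or 16.8% of the total width. The most broken region was on chromosome 18, 38749700 to 38831434, with 16 gaps in each list and 15 stretches free of both. A region on chromosome 14, 118609794 to 118679508, had 15 gaps in bone marrow, 14 in fetal liver and 22 stretches free of both. The widest gaps were 10.5 kb, both in bone marrow, on chromosome 5 from 120261121 to 120271616 and on chromosome 1 from 74950326 to 74960792, of which fetal liver peaks marked 50.5 and 45.8%.

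Fold enrichment over input, the authors' value averaged per peak, varied little among the regions and was not ordered alike in the lists. Weighted by peak length, it ran from 1.44 to 3.26 in bone marrow, with a median of 2.19 (SD 0.25 over 713 regions), and from 1.46 to 3.49 in fetal liver, with a median of 1.97 (SD 0.21). The median over all autosomal peaks, taken peak by peak without weighting, was 2.13 in the bone marrow list and 1.93 in the fetal liver list. By the weighted measure, shared wide regions with more fetal liver bases had medians of 2.17 in bone marrow and 1.97 in fetal liver. Those with more bone marrow bases had 2.13 and 1.92. The lists' scales are not compared, since their depth is unknown. Across regions the folds of the 2 lists gave a Pearson r of 0.06 and a Spearman rho of 0.09 (n = 713, regions sharing libraries and depth). Of the 179 regions in the upper 25% by bone marrow fold, 53 (29.6%) were in the upper 25% by fetal liver fold. The −log10 q of the peaks, weighted by length in the same way, was modest, with a median of 1.58 in bone marrow and 1.24 in fetal liver. Its part in the small spread and the low correlation of the folds was not tested.

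The spread of fold narrowed with width. Its SD in bone marrow was 0.30 from 10 to under 15 kb and 0.13 from 50 kb, and in fetal liver 0.24 and 0.10, with medians of 2.16 and 2.21 and of 1.93 and 2.00. Wider regions average over more bases, and the part of this in the narrowing was not tested. The highest bone marrow folds belonged to short regions: 3.26 on chromosome 6, 92168339 to 92178653, where fetal liver had 1.91, and 3.23 on chromosome 8, 13426458 to 13440210, where it had 1.82. The highest fetal liver fold, 3.49, was on chromosome 2, 157544761 to 157559731, with 1.88 in bone marrow and an overlap of 20.2%. Outermost and inner peaks had like folds, with medians of 2.17 and 2.14 in bone marrow and of 1.97 and 1.97 in fetal liver, in regions of 3 or more peaks.

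Even regions were scattered over every autosome, with some close groups. The nearest other even region was a median of 483.4 kb away (quartiles 111.5 and 1538 kb), within 100 kb for 166 regions (23.3%) and within 1 Mb for 465 (65.2%). A union region of any width and class was closer, at a median of 5.97 kb, and within 10 kb for 496 (69.6%). With 22283 such regions this follows in part from their number, and joining keeps every neighbour more than 3 kb away. The same median was 5.095 kb for shared wide regions with more fetal liver bases and 5.90 kb for those with more bone marrow bases. The nearest wide region of any class lay a median of 106.6 kb from an even region. Members were densest on chromosome 11, with 4.92 per 10 Mb (60 regions), and sparsest on chromosome 16, with 1.42 (14 regions). As a share of the wide regions of a chromosome they ranged from 24.5% (16.9 to 34.0%) on chromosome 17 to 43.1% (32.3 to 54.6%) on chromosome 3, around the background of 33.1%. These extremes are picked from 19 chromosomes and their intervals overlap those of most others, so no order is read from them.

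**Figure D5:**
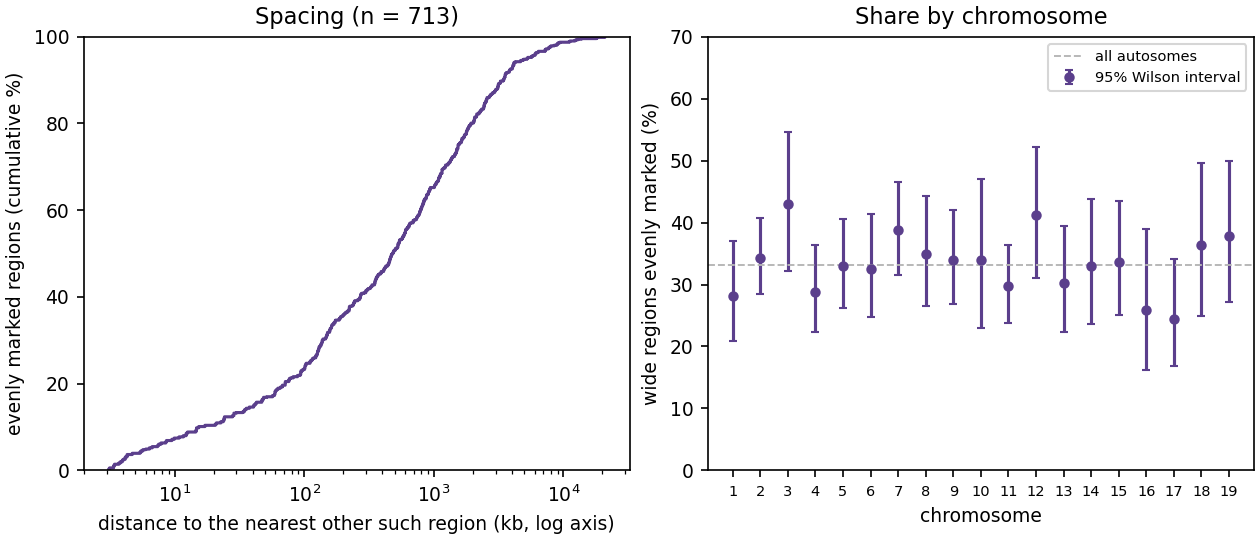
Left: cumulative percent of the 713 regions by distance to the nearest other evenly marked region, in kb on a log axis. Right: percent of wide regions that were evenly marked on each of 19 autosomes with 95% Wilson intervals, and the value of all autosomes, 33.1%, as a dashed line.

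The region adjacent among wide regions was even in 37.5% (35.0 to 40.0%) of cases seen from an even region and in 31.0% (29.3 to 32.7%) seen from another wide region. Each pair of neighbours counts from both sides, so these intervals are too narrow. Runs of adjacent even regions had up to 9 members, on chromosome 15 from 91399078 to 99065528 and on chromosome 8 from 46018351 to 73274053. The tightest run of 7 took up 1620 kb on chromosome 2, from 129777169 to 131396956.

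Some neighbouring domains were parted by little more than the joining distance. On chromosome 3, from 87749172 to 87845121, 3 even regions filled 86.8 of 95.95 kb. The first held 24.2 kb in 7 peaks of bone marrow and 21.1 kb in 7 of fetal liver, the second 17.1 kb in 6 and 18.1 kb in 2, and the last 23.1 kb in 5 and 22.0 kb in 3. The second and the last lay 3157 bp apart. The closest pair, on chromosome 7 at 50739332 to 50750731 and 50753833 to 50764768, was 3101 bp apart, with 89.3% and 45.4% of the smaller list shared. A pair on chromosome 8, 114200979 to 114211416 and 114214801 to 114234903, was 3384 bp apart, and both had slightly more bone marrow bases, at ratios of 0.902 and 0.882.

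The most isolated even region was on chromosome 6, 145810155 to 145820806, with the next one 20855 kb away. It held 8319 bases in 1 bone marrow peak and 8391 in 3 fetal liver peaks. On chromosome 10, 102487663 to 102499049, the nearest even region was 18253 kb and the nearest wide region of any class 15521 kb away, and 9347 bone marrow and 9070 fetal liver bases were marked there. Next in isolation, the region on chromosome 14 from 13167362 to 13189494 had 17.8 and 19.8 kb in peaks and shared 98.5% of the smaller list. In the first 2 of these regions the share was 72.8 and 88.7%.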

How the data were processed

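H3K27me3 was mapped by native ChIP-seq in 2 populations, each with 1 immunoprecipitation list; the 2 inputs have no list of their own here and entered only through the authors' peak calls. BWA 0.5.7, Picard and MACS2 2.1.0 with build mm9 were used per the submitters' processing notes; neither settings nor read numbers were given in the sources used here. By their names, peaks compare merged libraries with input. The authors deposited a fold enrichment (ratio to input), a −log10 p and a −log10 q for each broad peak. The deposited score, which was not used, is 10 times the −log10 q cut to a whole number, except for 1 peak in each list.

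Regions, overlaps, edges and gaps were computed in Python 3.11.15 with numpy 2.4.6, pandas 2.3.3 and scipy 1.17.1. Union regions and shared bases were the same in bedtools 2.31.1. Positions, edges, bone marrow gaps, gaps met and shared bases were recovered in 500 of 500 simulated regions. Each of these held at most a single gap per list, so regions with many gaps or partly overlapping gaps were not simulated. Chromosome lengths came from GenomeInfoDb 1.38.1 and figures from matplotlib 3.10.9. Coordinates count from 1. Depth is unknown, and the intervals rest on the numbers of regions, edges or gaps alone, so they give no precision for the populations. Alternatives changed the joining distance, the limits, the width and the peaks entered. Named regions are the 10 widest, the 5 with the smallest and the 5 with the largest edge offsets, the 5 of lowest overlap, the 3 with most gaps, the 3 most isolated, the 3 closest pairs and those at the limits; those named by fold, by widest gap or by run were chosen after their values were seen. Members and lists were chosen with earlier results of these data known. Genes and sequences were not placed on mm9 and are not analysed here.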

Additional observations from a re-analysis of the deposited data

How the results depend on the processing

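No paired analysis was possible because each population has a single list. Of 58 alternative values, 26 stayed within the 95% binomial interval of the reported value (for the count of regions, within 1.5 times) and 32 did not. The folds and the count of regions stayed under most alternatives. Overlap, edge distance, gaps met and spacing moved under most. The alternatives reuse the same lists, and the interval covers counting over regions, edges or gaps only, so it serves as a yardstick of size. The 7 reported values were 713 regions, a median overlap of 87.2%, a median edge distance of 823 bp, 63.6% of bone marrow gaps met, a median spacing of 483.4 kb and median folds of 2.19 in bone marrow and 1.97 in fetal liver. Joining within 1 kb gave an overlap of 93.6%, an edge distance of 534 bp and 38.2% of gaps met; joining within 10 kb gave 78.6%, 1282 bp and 72.9%. Tighter ratio limits, 0.9 and about its inverse, left 341 regions, with an edge distance of 728.5 bp and a spacing of 1305 kb. A width of at least 20 kb left 283 regions, with an overlap of 90.6%, 949 bp and 1536 kb. A −log10 q of 2 or more for every peak left only 15 regions, with an overlap of 75.3%, an edge distance of 2586 bp, 29.4% of gaps met, a spacing of 12187 kb and folds of 2.60 in bone marrow and 2.53 in fetal liver, and 7 of the 15 overlapped one of the 713; fewer peaks entered. Peaks of at least 1 kb gave an overlap of 90.2%, 56.5% of gaps met and a spacing of 643.5 kb. With the fetal liver list cut by −log10 p to as many peaks as bone marrow had, the edge distance was 1049 bp, 51.2% of gaps were met and the fetal liver fold was 2.04; 492 of its 635 regions overlapped one of the 713. Edges at the ends of the widest peak of each list were 1230 bp apart, and bases in both over bases in either list had a median of 69.9%. Dividing the ratio by 1.52, an alternative added after seeing the data, gave an overlap of 90.1%, an edge distance of 1539 bp, 58.7% of gaps met and a spacing of 291.0 kb, with 62 of its 762 regions among the 713. For the other changes the cause was not tested. The unknown depth limits all comparisons of covered length.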

Other observations

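Stretches that the rule left out were put through the same limits. Of 9 regions of at least 10 kb touching a Hox cluster, 4 had a ratio within them, beside 33.1% of the wide autosomal regions outside Hox. The domain on chromosome 2, 74477491 to 74611548, had a ratio of 1.03 with 9 bone marrow and 3 fetal liver peaks, and 96.6% of the smaller list was shared. On chromosome 15, 102708470 to 102981005, the ratio was 1.1107 and 99.2% was shared, and the left end lay 4610 bp farther out in fetal liver. Narrower regions within the limits shared less: 24.9% on chromosome 2, 74644774 to 74662750, and 86.8% on chromosome 15, 102998609 to 103015648. The large domains on chromosome 11, 95995956 to 96245526, and chromosome 6, 52093230 to 52279715, had ratios of 1.41 and 1.30 and lay outside the limits. At the left end of the chromosome 11 domain both lists began at the same base.

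On the X chromosome 11 regions reached 10 kb, and 7 of them were within the limits. The widest, from 133629052 to 133664033, was 35.0 kb wide with 10 bone marrow and 11 fetal liver peaks, a ratio of 0.986 and 61.4% of the smaller list shared, and its ends differed by 509 and 33 bp. Another, from 90522244 to 90548886, had a ratio of 0.973 and 88.4% shared. The share within the limits on X was not tested against that of the autosomes, which was 33.1% outside Hox.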
